A study of Mus musculus with 6 samples.

Results

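The GABAergic lineage was examined in mouse cortical neurons with and without RP58 through 9 genes chosen by name (Gad1, Gad2, Slc32a1, Dlx1, Dlx2, Dlx5, Lhx6, Sp8 and Sp9), of 34289 genes measured. Of the 9, 7 passed the filter on low counts, as did 16985 of all genes. GABAergic neurons release the inhibitory transmitter GABA. In the embryonic forebrain they are born below the cortex, in the ganglionic eminences, and reach the cortex by migration, while neurons born in the cortex itself use glutamate. Gad1 and Gad2 encode the enzymes that make GABA from glutamate, and Slc32a1 encodes the transporter that loads GABA into vesicles. The homeodomain factors of the Dlx family specify GABAergic fate, and Lhx6 acts after them in interneurons of the medial eminence. The zinc finger factors Sp8 and Sp9 act in progenitors and young neurons of the lateral and caudal eminences, among other sites.

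The libraries were made from total RNA of postmitotic cortical neurons of E14.5 embryos, from 3 control samples labelled Rp58+/+ and 3 mutant samples labelled Rp58-/-. Rp58, now named Zbtb18, encodes a zinc finger repressor that cortical neurons need in order to mature, and the question is what its loss changes in their transcripts. The mutants are homozygous by their label, the allele and the part of the gene it removes are not stated in the sources used here, and no treatment is named. Whether the 3 samples of a genotype are separate embryos, and how the neurons were isolated, is not stated in the sources used here, so the p-values measure the spread between these libraries, which may be technical in part.

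Total estimated counts were between 34645505 and 75892649 a library. The libraries were of 2 types, seen in the deposited effective lengths. In control 1, mutant 1 and mutant 2, a transcript was 249 bases longer than its effective length (fixed-length libraries), and in control 2, control 3 and mutant 3 by 134 to 139 bases (estimated-length libraries). Mitochondrial transcripts held 3.58% to 5.15% of counts in the first type and 16.4% to 17.5% in the second. The tests below carry a term for library type, and values without it are given as well. The term was chosen with earlier results of these data known, in which this split was the largest source of variation. Zbtb18 was at 1902, 1587 and 1697 CPM (reads per 1000000 of a library's normalized total) across controls 1 to 3 and at 46.7, 45.7 and 538 CPM across mutants 1 to 3. All mutants lay below all controls, and mutant 3 kept more Zbtb18 than the other mutants.

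Transcripts of the GABAergic lineage were scarce in every library. On the scale of TPM, a level per length scaled to a total of 1000000, the highest of the 9 genes reached 0.221, 0.0959 and 0.0899 TPM across controls 1 to 3. In mutants 1, 2 and 3 the highest was at 1.24, 1.38 and 0.146 TPM. Of 9 genes that mark glutamatergic cortical neurons, which check the labelled cell type, all lay above the GABAergic lineage genes in every library. The lowest of them in the controls, Slc17a6, was at 9.99, 1.97 and 1.61 TPM across controls 1 to 3. Ranked by TPM among all protein-coding genes of a library, the glutamatergic genes stood between percentiles 60.5 and 99.6, and the GABAergic lineage genes between percentiles 9.71 and 48.4. TPM values of the library types are not comparable. In controls 1 and 2 the glutamatergic genes summed to 4253 and 3838 CPM, but to 2134 and 460.4 TPM. The cause of this was not tested, and only orders within a library are read. Dlx1, Lhx6 and Sp8 were the top 3 in each control. Sp8 was highest in control 1, at 0.221 TPM against 0.142 for Lhx6, and Dlx1 in controls 2 and 3, at 0.0959 and 0.0899 TPM against 0.0807 and 0.0729 for Lhx6. Dlx5 and Sp8 led in each mutant, with Dlx5 first in mutants 1 and 2 and Sp8 in mutant 3. Neighbours in these orders rest on few reads and exchange places between libraries of a genotype.

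**Figure D1:**
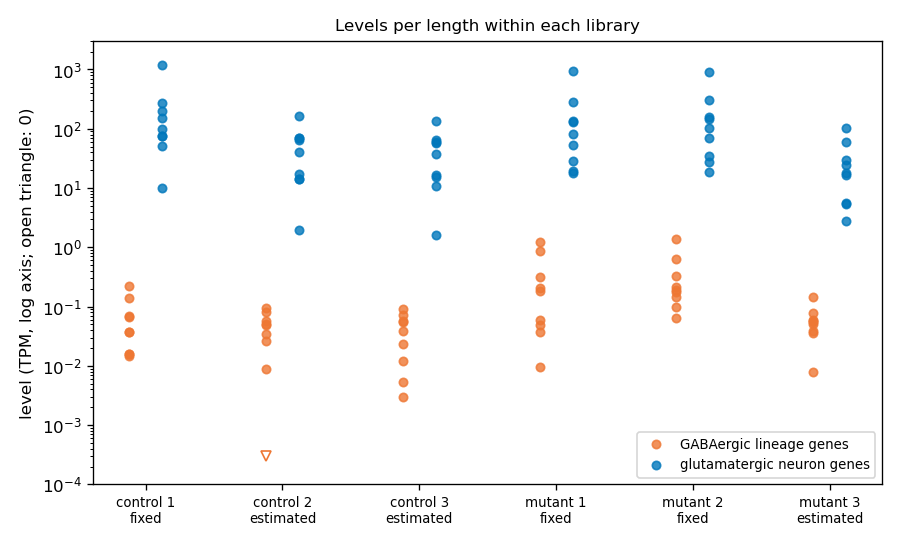
Level in TPM on a log axis in each of the 6 libraries for the 9 GABAergic lineage genes (orange) and 9 glutamatergic neuron genes (blue). Each point is a gene, the open triangle is a gene at 0, and in every library all orange points lie below all blue points.

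Slc32a1, Dlx5 and Sp8 rose in the mutants, the other 4 members tested did not pass, and Gad1 and Dlx2 were under the filter. Thus 3 of the 7 members tested rose and none fell, where 7.92% of all genes tested rose and 7.01% fell (quasi-likelihood test of edgeR with a library type term, Benjamini-Hochberg adjusted). Without that term no member was called, where 1.59% of all genes rose and 0.765% fell, although 3 members had an unadjusted p of 0.00465 (Dlx5), 0.00829 (Sp8) and 0.0176 (Slc32a1). Slc32a1 and Dlx5 passed the filter only through the mutant libraries, so a count over the members tested is a description and not support. The mutant libraries lay wholly above the controls for these same 3 members, as for 8.8% of all genes tested. In these bulk samples more cells of a type and more RNA per cell cannot be told apart.

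Of the genes that make and package GABA, the transporter gene rose and neither enzyme gene was called. Slc32a1 had 1, 0 and 2 reads across controls 1 to 3 and 31, 17 and 25 reads across mutants 1 to 3. As levels these were 0.0318, 0 and 0.0474 CPM against 0.598, 0.318 and 0.506 CPM, so that each mutant exceeded every control and the library types did not separate. Its log2 fold change was 3.04 ± 0.56 (SE, n = 3 libraries a genotype) with adjusted p = 0.0137 from edgeR, and 2.96 ± 0.91 with adjusted p = 0.282 without the type term. Because the controls held only 3 reads in all, the ratio of summed reads per normalized library size is the plainer measure. It was 22.2, with a 95% exact interval of 7.29 to 110 that covers counting error only.

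Gad1 was under the filter, with 1, 23 and 11 reads in the control group and 1, 2 and 9 in the mutant group. Its higher values fell in the estimated-length libraries of both genotypes, at 0.342 and 0.261 CPM in controls 2 and 3 and 0.182 CPM in mutant 3, against 0.0374 CPM or less elsewhere. Fitted without the filter, its log2 fold change was -0.44 ± 0.64 (edgeR adjusted p = 0.867). Gad2 had 2, 48 and 33 reads in the control group and 8, 19 and 49 in the mutant group. Its level was 0.0636, 0.715 and 0.782 CPM across controls 1 to 3 and 0.154, 0.355 and 0.992 CPM across mutants 1 to 3, so the genotypes overlapped and the library types did not. Its log2 fold change was 0.72 ± 0.44 (adjusted p = 0.330) with the type term and -0.06 ± 1.02 (adjusted p = 0.997) without it. Gad1 and Gad2 therefore showed no change that these libraries could resolve.

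**Figure D2:**
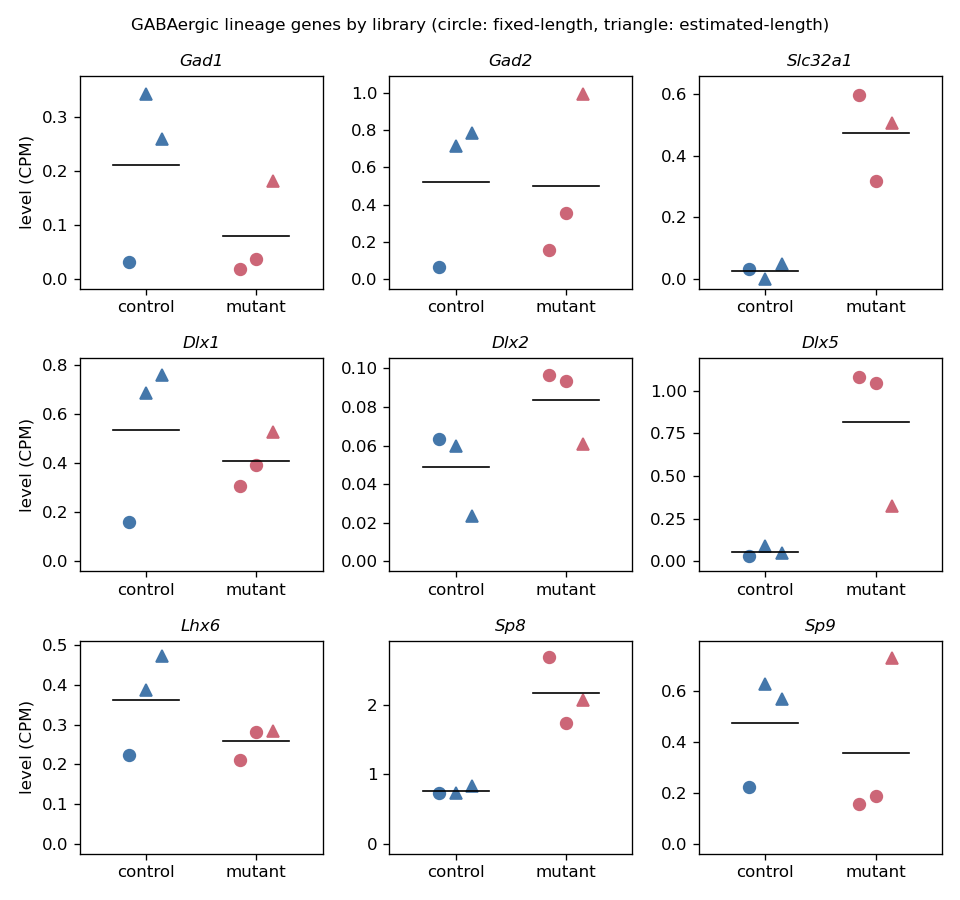
Level in CPM of each of the 9 genes in the 6 libraries, with 3 controls (blue) and 3 mutants (red), circles for fixed-length and triangles for estimated-length libraries, and a line at each genotype's mean. Mutants lie above controls for Slc32a1, Dlx5 and Sp8. For Gad1, Gad2, Dlx1, Lhx6 and Sp9 the triangles lie above the circles in both genotypes, for Lhx6 by little in the mutants.

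Among the Dlx genes, Dlx5 rose, Dlx1 did not pass and Dlx2 was under the filter. Dlx5 had 1, 6 and 2 reads across controls 1 to 3 and 56, 56 and 16 across mutants 1 to 3. The corresponding levels were 0.0318, 0.0893 and 0.0474 CPM, and 1.08, 1.047 and 0.324 CPM. All mutants exceeded all controls, and mutant 3, the library with the most remaining Zbtb18, held the least Dlx5 of the mutants. The part of library type or of the remaining Zbtb18 in this was not tested. The log2 fold change was 2.56 ± 0.50 with adjusted p = 0.0180 (3.13 ± 0.71 and adjusted p = 0.119 without the type term, both from edgeR). The ratio of summed reads per normalized library size was 13.0 (95% exact interval 6.61 to 29.0, counting error only).

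The reads of Dlx5 in the genotypes were assigned to different transcript models, which differ in a stretch of 82 coding bases. Dlx5-201 (ENSMUST00000052609) codes for 289 residues and Dlx5-202 (ENSMUST00000142635) for 146, since it skips the first 82 bases of exon 2 and its reading frame ends early. The sequences that separate the models are the skipped stretch (GENCODE vM21 on GRCm38, chr6:6879629-6879710, minus strand) and the junctions of exon 1 (lower case) with exon 2 (capitals), from the same annotation.
Dlx5-201 exon 2 stretch: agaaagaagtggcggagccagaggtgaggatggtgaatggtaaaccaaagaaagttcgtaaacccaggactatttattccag
Dlx5-201 junction: ccagccagccagAGAAAGAAGTGG
Dlx5-202 junction: ccagccagccagCTTTCAGCTGGC
Dlx5-201 was assigned 0 reads in each control and 56, 56 and 16 across mutants 1 to 3. Dlx5-202 was assigned 1, 6 and 2 reads across controls 1 to 3 and 0 in each mutant. The genotypes thus shared no model with a read. As a single transcript it was not called (edgeR log2 fold change 3.84 ± 0.43, adjusted p = 0.0833), where 1.11% of the 42824 transcripts tested rose, and Dlx5-202 was under the filter. Of the 1393 words of 31 bases in Dlx5-201, 125 are absent from Dlx5-202, and 26 of 1294 words of Dlx5-202 are absent from Dlx5-201. Most reads of the gene could therefore come from either model, and with 9 reads in all controls the assignment there is an estimate that rests on few bases.

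**Figure D3:**
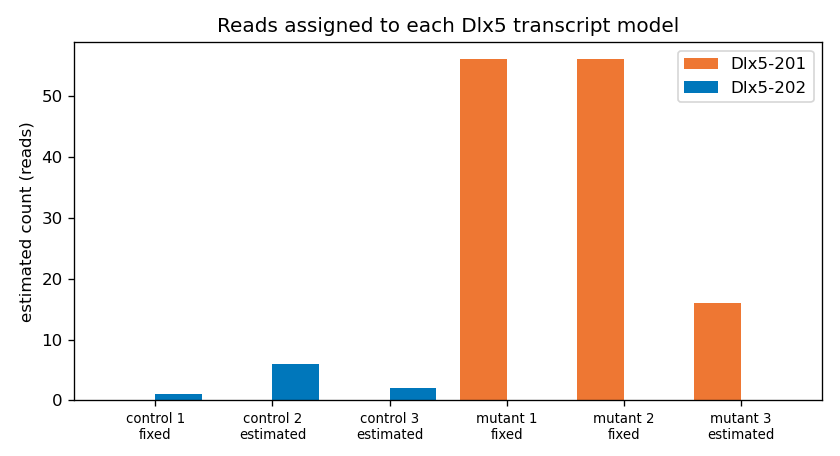
Estimated count of reads assigned to Dlx5-201 (orange) and Dlx5-202 (blue) in each library, with the library type under its name. Orange bars appear in the mutants alone, at 56, 56 and 16 reads, and blue bars in the controls alone, at 1, 6 and 2.

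Dlx1 had 5, 46 and 32 reads in the control group and 16, 21 and 26 in the mutant group. Its level was 0.159, 0.685 and 0.758 CPM across controls 1 to 3 and 0.309, 0.393 and 0.526 CPM across mutants 1 to 3. For Dlx1 the mutants lay inside the range of the controls, and the estimated-length libraries were highest. Its log2 fold change was 0.12 ± 0.38 (edgeR adjusted p = 0.875). Nearly all of these reads were assigned to Dlx1-203, a model with a retained intron, with 5.4, 40.3 and 28.6 reads in the control group and 13.0, 18.6 and 23.9 in the mutant group. Dlx1-201, the longest coding model, was assigned at most 2.5 reads in any library. Dlx2 was at the limit of detection, with 2, 4 and 1 reads in the control group and 5, 5 and 3 in the mutant group. A count of 3 corresponded to 0.0447 to 0.0954 CPM in these libraries, and all levels of Dlx2 lay between 0.0237 and 0.0965 CPM, so no fold is given.

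The Dlx genes lie in pairs, Dlx1 beside Dlx2 and Dlx5 beside Dlx6, and each pair has an antisense RNA. Dlx6, the neighbour of Dlx5, was not called. It was at 0.413, 2.44 and 1.85 CPM across controls 1 to 3 and at 0.463, 0.543 and 3.28 CPM across mutants 1 to 3 (edgeR log2 fold change 0.47 ± 0.25, adjusted p = 0.273). Its levels followed library type, with all 3 estimated-length libraries above the others. The antisense RNAs, Dlx1as and Dlx6os1, were at most at 0.592 and 0.596 CPM in any library, and neither was called (adjusted p = 0.557 and 0.678). Without the type term the log2 fold changes of Dlx6, Dlx1as and Dlx6os1 were -0.13 ± 0.99, -0.14 ± 0.92 and -0.43 ± 1.33, and none was called (edgeR adjusted p of 0.9966, 0.9966 and 0.9965). The kit is stranded per the labels, but whether strand was used in the counting is not stated in the sources used here, so reads of overlapping antisense transcripts cannot be fully told apart from those of the Dlx genes.

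Of the remaining factors, Sp8 rose, and Lhx6 and Sp9 did not pass. Sp8 had the most reads of the members in each library. It had 23, 49 and 35 reads across controls 1 to 3 and 139, 93 and 102 across mutants 1 to 3. Its level was 0.731, 0.729 and 0.829 CPM across controls 1 to 3 and 2.68, 1.74 and 2.07 CPM across mutants 1 to 3, or 0.763 ± 0.0570 and 2.16 ± 0.479 CPM (mean and SD, n = 3). The lowest mutant exceeded the highest control, and Sp8 passed the filter in all 6 libraries. The log2 fold change was 1.45 ± 0.27 with adjusted p = 0.0151, and 1.45 ± 0.38 with adjusted p = 0.171 without the type term (edgeR). Its relative Sp9 had 7, 42 and 24 reads in the control group and 8, 10 and 36 in the mutant group. Sp9 was at 0.223, 0.625 and 0.569 CPM against 0.154, 0.187 and 0.729 CPM, so that the genotypes overlapped and the estimated-length libraries were highest (log2 fold change 0.05 ± 0.33, adjusted p = 0.943). Lhx6 had 7, 26 and 20 reads in the control group and 11, 15 and 14 in the mutant group. Its level was 0.223, 0.387 and 0.474 CPM across controls 1 to 3 and 0.212, 0.281 and 0.284 CPM across mutants 1 to 3. The genotypes overlapped, and the estimated-length libraries were highest, by little in the mutants (log2 fold change -0.24 ± 0.34, adjusted p = 0.692). Without the type term the log2 fold changes of Dlx1, Lhx6 and Sp9 were -0.36 ± 0.71, -0.43 ± 0.60 and -0.37 ± 0.81, each with an edgeR adjusted p of 0.9965.

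Within each library type the 3 genes that rose kept their direction. Each type holds 1 genotype with a single library, so the spread was pooled over both. Within the fixed-length libraries Dlx5 alone was called, with a log2 fold change of 3.93 ± 0.60 (edgeR adjusted p = 0.01395), where 6.05% of all genes rose. Its ratio of summed reads there was 33.5, with a 95% exact interval of 5.88 to 1330 since control 1 had 1 read. Within the estimated-length libraries Dlx5 was at 1.70 ± 0.44 (adjusted p = 0.0841), with a ratio of 4.43 and an interval of 1.79 to 12, and no member was called, where 4.6% of all genes rose. The effects of Dlx5 differed by -2.23 ± 0.85 between the types, with an unadjusted p of 0.0404 and adjusted p = 0.651. Sp8 was at 1.54 ± 0.42 in fixed-length and 1.37 ± 0.37 in estimated-length libraries (edgeR adjusted p = 0.0843 and 0.0906). Slc32a1 was at 2.78 ± 0.97 and 3.19 ± 0.72 (edgeR adjusted p = 0.148 and 0.0544), and rested on 1 and 2 control reads. No member was among the 0.153% of genes whose effect differed between the types.

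**Figure D4:**
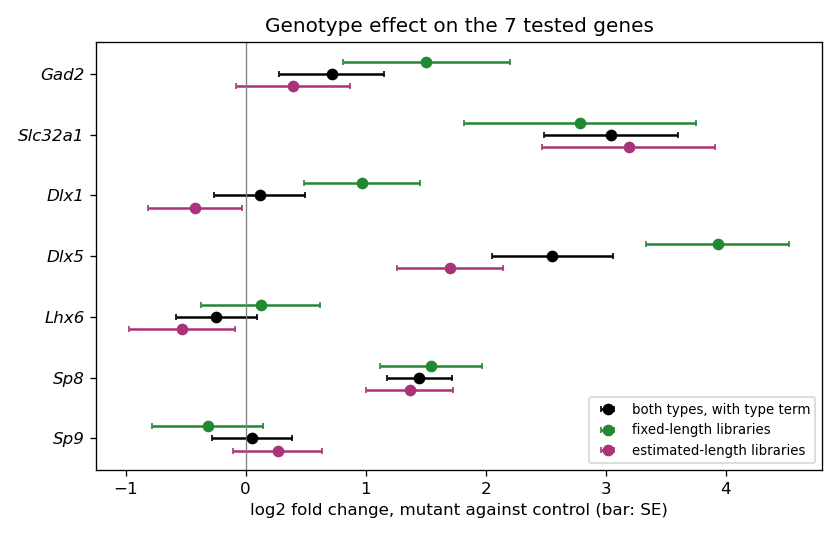
Log2 fold change of mutant against control for the 7 genes tested, with both library types (black), within fixed-length libraries (green) and within estimated-length libraries (purple), and bars of 1 SE. Slc32a1, Dlx5 and Sp8 lie to the right of 0 in all 3 fits, while Dlx1, Lhx6 and Sp9 change sign between the library types.

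Of the 7 members tested, 3 were higher in the estimated-length libraries, a share near that of all genes. Gad2, Sp9 and Dlx1 were higher there by 2.17 ± 0.44, 1.61 ± 0.30 and 1.11 ± 0.40 on the log2 scale (edgeR adjusted p = 0.00423, 0.00277 and 0.0431), where 38.2% of all genes were called higher in that type. Slc32a1, Sp8 and Dlx5 differed between types by 0.05 ± 0.65, -0.02 ± 0.28 and -0.98 ± 0.52, and none of them was called (edgeR adjusted p = 0.951, 0.963 and 0.135). The pooled share of reads on coding models also differed. Models annotated as protein-coding took 81.5%, 64.7% and 67.0% of the reads of the 9 members together across controls 1 to 3, and 91.6%, 90.7% and 87.0% across mutants 1 to 3. For all protein-coding genes the same share was 93.3% to 96.3% in every library. Slc32a1, Dlx5 and Sp8, the members that rose, had reads on coding models alone in both genotypes. More reads of these members raise the pooled share even where no gene changes its model. The reads of Dlx5 were assigned to different models in the genotypes, but both models are coding. How far a change of model in other members entered the pooled share was not tested. Gad1-208, a Gad1 model with a retained intron, took 20.5 of 23 reads of the gene in control 2 and 8.6 of 11 in control 3. In mutant 3 it took 1.3 of 9. Gad1-201, the longest coding model of the gene, was assigned 0 reads in every library.

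No member that rose was called in every fit that left out 1 library. Slc32a1 lost its call without control 1, mutant 1 or mutant 3 (adjusted p = 0.0770, 0.0582 and 0.155), and Dlx5 without control 1, control 3 or mutant 1 (adjusted p = 0.0979, 0.0762 and 0.0618). Sp8 lost it without control 1, 2 or 3 or without mutant 3 (adjusted p = 0.0903, 0.0733, 0.0579 and 0.0926, all from edgeR). The number of members that rose was 0 without control 1, 2 without control 2, 1 without control 3, 1 without mutant 1, 3 without mutant 2 and 1 without mutant 3. In these fits 4.36%, 4.79%, 4.77%, 6.14%, 8.86% and 5.72% of all genes tested rose, in the same order. All 3 genes kept a positive log2 fold change in each of these fits.

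The transcription factor ZBTB18 is known to bind an E-box whose core is CATCTG, so the promoters of the members were searched for these letters. RefSeq's table of promoter windows on GRCm38.p6, from 250 bases before a start site to 50 after it, matched 8 of the 9 members (all but Dlx5), with 12 windows in all. CATCTG or its reverse complement CAGATG was found in 1 of the 12 windows, that of Gad2, against 17.2% of all 32851 windows. The longer ACATCTG, which contains the first motif, was found in none of the 12 and in 4.43% of all windows. The match in Gad2, a gene that did not pass the test, begins 76 bases before the start site. For comparison, the 250 bases upstream of Slc32a1 (chr2:158610508-158610757, plus strand), a gene that rose, hold neither word on either strand. The Gad2 window has the match in capitals.
Gad2: ctccctcccccgCATCTGactcgcacctca
Slc32a1: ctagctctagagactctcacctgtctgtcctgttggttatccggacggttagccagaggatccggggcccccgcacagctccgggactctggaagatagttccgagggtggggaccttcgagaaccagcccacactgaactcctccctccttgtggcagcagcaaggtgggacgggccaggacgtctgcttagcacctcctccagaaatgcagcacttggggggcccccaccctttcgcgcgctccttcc
These letters describe the windows alone and say nothing of binding elsewhere at these genes.

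Other genes of GABAergic cells were taken from 6 lists. Of these 57 genes, 56 were measured, 45 were tested and Lhx8 is not analysed here. With the type term 22 of the 45 rose and 5 fell, where 7.92% of all genes rose and 7.01% fell. Without it 13 rose and none fell, where 1.59% and 0.765% of all genes did. Tac1 of the striatal list and Nxph1 of the medial list rose with the type term and passed the filter only through the mutant libraries. The counts over tested genes of these lists are therefore a description and not support. Among genes of GABA uptake and breakdown, 2 of 5 tested rose and none fell. Slc6a11, a GABA transporter gene, rose from 0.417 ± 0.0810 to 109 ± 44.6 CPM (SD, n = 3, edgeR adjusted p = 8.33e-06). Abat, which breaks GABA down, was at 15.7 ± 1.97 and 10.1 ± 1.37 CPM and missed the threshold (adjusted p = 0.0506).

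Among the other subpallial transcription factors, 2 of 7 tested rose and none fell. Gsx2, a factor of lateral eminence progenitors, had no read in any library. Nkx2-1, which specifies the medial eminence, was tested and not called, at 0, 0.298 and 0.237 CPM across controls 1 to 3 and 0, 0.0187 and 0.364 CPM across mutants 1 to 3. Of the 2 antisense RNAs neither was called, as given above.

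Among genes of interneurons of medial origin, 7 of 12 tested rose and 2 fell. Npy, a neuropeptide gene, rose from 0.253 ± 0.213 to 124 ± 34.6 CPM, and Sox6, which acts after Lhx6, from 3.93 ± 1.12 to 16.5 ± 1.10 CPM (edgeR adjusted p = 0.000113 and 0.00100). The peptide gene Sst and the calcium buffer gene Pvalb were under the filter, with at most 0.135 and 0.0237 CPM in any library. Among genes of interneurons of caudal origin, 7 of 8 tested rose and none fell. The nuclear receptor gene Nr2f2 rose from 13.6 ± 7.16 to 40.4 ± 12.2 CPM, the peptide gene Cck from 12.9 ± 0.790 to 28.7 ± 1.87 CPM and the homeodomain factor gene Prox1 from 0.761 ± 0.154 to 15.8 ± 11.8 CPM (edgeR adjusted p = 0.000646, 0.000733 and 0.00133). Vip, the peptide gene of a caudal subtype, had reads in mutant 3 alone, at 0.0405 CPM.

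Among genes of striatal projection neurons, 4 of 11 tested rose and 3 fell. The transcription factor genes Ebf1 and Foxp2 rose from 1.88 ± 0.228 to 19.1 ± 0.629 CPM and from 14.4 ± 6.05 to 38.4 ± 13.7 CPM, and Tac1, the precursor gene of substance P, was at 0 in the controls and at 32.1, 30.5 and 8.46 CPM across mutants 1 to 3 (edgeR adjusted p = 6.03e-05, 0.000561 and 0.000107). Among those that fell, Ppp1r1b, the gene of a dopamine signalling protein, went from 51.8 ± 26.2 to 25.7 ± 13.2 CPM and Penk, the enkephalin precursor gene, from 0.888 ± 0.813 to 0.267 ± 0.226 CPM (edgeR adjusted p = 0.000727 and 0.0181), both with overlap between the genotypes and no call without the type term (adjusted p = 0.789 and 0.9965). Without the type term Nr2f2 and Foxp2 lost their calls (edgeR adjusted p = 0.216 and 0.274). Several of these genes are also used by cortical neurons of other kinds: Sox6, Nr2f2, Cck and Foxp2 are known in developing glutamatergic neurons or their progenitors. The lists are thus not specific to GABAergic cells, and no cell type is read from them or from the rise of Sp8.

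**Figure D5:**
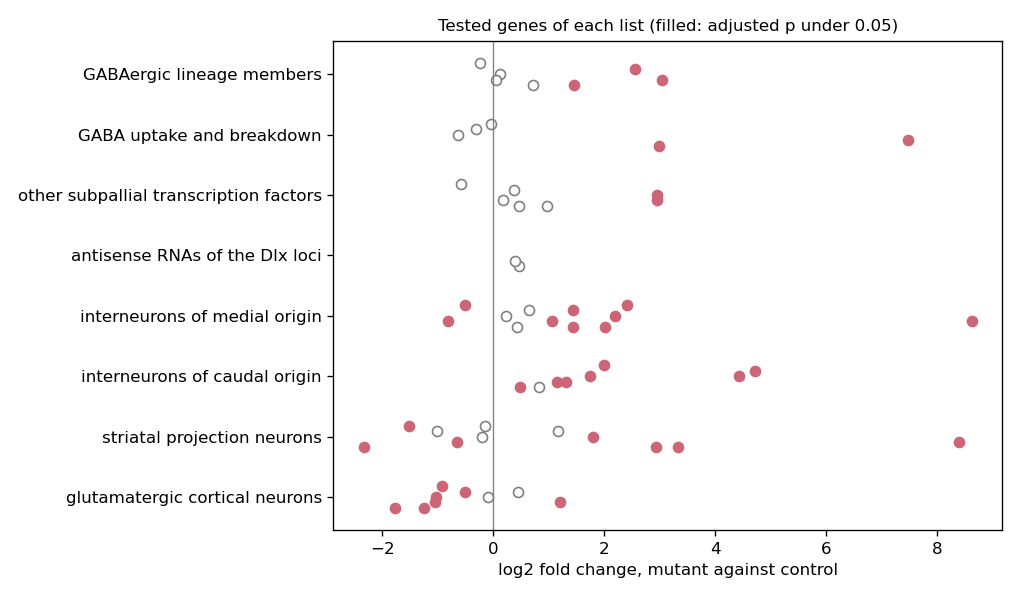
Log2 fold change of mutant against control for each tested gene of 8 lists, 1 row a list, with filled points for genes at adjusted p under 0.05 in the fit with the type term. In the row of GABAergic lineage members 3 of 7 points are filled, and in the row of caudal origin 7 of 8.

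Markers of other cells were read beside these values, and their part in the members' values was not tested. With the type term 7.92% of all genes tested rose and 7.01% fell, and the counts of each list stand beside these shares. Of 9 genes of glutamatergic cortical neurons, 1 rose and 6 fell, and their summed level was 3838 to 4253 CPM in the control group and 2328 to 3027 CPM in the mutant group. Slc17a7, a vesicular glutamate transporter gene, fell by 1.77 on the log2 scale and Fezf2, a factor of deep-layer neurons, by 1.03 (edgeR adjusted p = 0.000662 and 0.00100). Slc17a6, the gene of another vesicular glutamate transporter, rose from 26.2 ± 4.90 to 60.1 ± 11.7 CPM (edgeR adjusted p = 0.00750). Without the type term neither transporter gene was called (adjusted p = 0.213 and 0.0686). Of 6 pan-neuronal genes 1 rose and 3 fell (4549 to 7043 CPM against 3615 to 5773 CPM summed), and of 8 radial glia genes 3 rose and 3 fell (107 to 237 CPM against 100.4 to 211 CPM). Of 5 genes of intermediate progenitors 4 rose (189 to 275 CPM against 429 to 562 CPM), of 6 cell cycle genes 4 rose (52.1 to 107 CPM against 63.6 to 109 CPM), and none of either list fell. Cajal-Retzius cells, the oligodendrocyte lineage and endothelial cells gave 0 of 5, 2 of 2 and 1 of 2 tested genes that rose and none that fell. The summed levels of the last of these lists were 0.731 to 1.15 CPM in the control group and 1.56 to 3.75 CPM in the mutant group for the oligodendrocyte lineage, and 0.318 to 1.07 CPM and 0.898 to 3.20 CPM for endothelial cells. Sox10, which defines the oligodendrocyte lineage, had no read in any library. No tested gene of mural and meningeal cells, microglia or erythroid cells was called (0 of 4, 0 of 2 and 0 of 5 by edgeR). Their summed levels were 1.49 to 2.96 CPM in the control group and 1.72 to 1.95 CPM in the mutant group for mural and meningeal cells, 1.47 to 1.97 CPM and 0.753 to 2.31 CPM for microglia, and 6.61 to 11.2 CPM and 5.89 to 20.45 CPM for erythroid cells. For Cajal-Retzius cells they were 197 to 722 CPM and 232 to 689 CPM. Without the type term fewer of these markers were called, where 1.59% of all genes rose and 0.765% fell. None rose and 2 fell of the glutamatergic genes, 3 rose and 1 fell of the radial glia genes, and 1 of the intermediate progenitor genes rose. No gene of the pan-neuronal, cell cycle, Cajal-Retzius, oligodendrocyte, endothelial, mural and meningeal, microglia or erythroid lists was called in that fit. The 9 GABAergic lineage members, measured the same way, summed to 1.56, 3.63 and 3.79 CPM across controls 1 to 3 and to 5.31, 4.45 and 5.67 CPM across mutants 1 to 3. The sums of the genotypes did not overlap, but this rested on Sp8 and on Dlx5. Sp8 gave 0.731, 0.729 and 0.829 CPM of the control sums and 2.68, 1.74 and 2.07 CPM of the mutant sums. Dlx5 gave 0.0318, 0.0893 and 0.0474 CPM of the control sums and 1.08, 1.047 and 0.324 CPM of the mutant sums. The remainder without Sp8 overlapped between the genotypes, and so did the remainder without Dlx5.

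The profile of the 7 tested members over the 6 libraries was compared with all 12931 other genes of at least 1 CPM on average. The measure was the mean of the members' centred log2 CPM, and likeness was Pearson's r over the 6 libraries, whose genotypes and library types all genes share. The closest were Tlcd2, Cdk14, Necab1, Dkk2 and Svil, with r of 0.999, 0.995, 0.993, 0.992 and 0.991. Cdk14 was at 25.15 ± 9.28 CPM in the control group and 52.0 ± 12.9 CPM in the mutant group, and Svil at 0.366 ± 0.356 and 4.51 ± 2.30 CPM (SD, n = 3). These r values describe 6 points and carry no test.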

How the data were processed

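Total RNA of 6 libraries was measured by RNA-seq with a stranded kit, per the labels. Per the submitters' processing notes the tools were FastQC and kallisto and the build mm9, with versions and kallisto's strand setting not given in the sources used here. Each deposited table gives, per transcript, its length and effective length in bases, an estimated count and a TPM. Of 97251 transcripts, 84637 (87.0%) matched GENCODE vM21, and the unmatched ones, left out, held 6.85% to 8.58% of the deposited estimated counts. Estimated counts were summed per gene and rounded to whole numbers.

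Genes were kept by edgeR's default filter (a minimum of 10 counts, about 0.203 CPM, in 3 libraries), scaled by TMM and tested with edgeR 4.0.16 in R 4.3.3 by the quasi-likelihood test, with terms for library type and genotype, at a Benjamini-Hochberg adjusted p of 0.05. The library type was read from the effective lengths, and control 1, mutant 1 and mutant 2 are of the fixed-length type. The common biological coefficient of variation was 0.186 with the type term and 0.701 without it. CPM is the count per 1000000 of the TMM-normalized library size, and 1 read was worth 0.0149 to 0.0318 CPM. The SE of a log2 fold change is its size over the root of the test's F. The procedure was tested on simulated data. Alternatives were no type term, other scalings, no filter, DESeq2 1.42.0, limma 3.58.1 on log2(TPM + 0.5), protein-coding genes only, each library type alone and each library left out.

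The members, the gene lists and the library type term were chosen with earlier results of these data known. Besides the members, genes were named by a rule: the deleted gene, up to 3 called genes with the smallest p in a list, and the 5 genes most like the members' profile. Some genes the rule names are not reported here. Abat, Dlx6, Dlx6os1, Gsx2, Nkx2-1, Nxph1, Sst, Pvalb, Vip, Sox10, Slc17a6, Ppp1r1b and Penk were named after their values were seen. Replicates were numbered in accession order.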

Additional observations from a re-analysis of the deposited data

Results flagged for a closer look

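The effect of genotype on Zbtb18 itself differed between the library types. Its log2 fold change was -5.36 in fixed-length libraries and -1.61 in estimated-length libraries, a difference of 3.75 on the log2 scale (edgeR interaction test, adjusted p = 0.00963). The only mutant of the estimated-length type was mutant 3, so library type and that library cannot be told apart. Of the GABAergic lineage genes, Dlx5 had the difference with the smallest p between types, at -2.23, with an adjusted p of 0.651 from the same test.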

How the results depend on the processing

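Slc32a1, Dlx5 and Sp8 kept a positive fold change under every alternative compared (DESeq2 gave Slc32a1 no adjusted p, and its fold change there was not compared), while their calls often did not hold. Without the type term none was called, with log2 fold changes of 2.96, 3.13 and 1.45, and 400 genes were called in place of 2537 (270 rose and 130 fell, in place of 1346 and 1191). By limma on log2(TPM + 0.5) none was called, with 0.35, 0.95 and 0.50 on that scale, which understates changes of low genes, and 1023 genes were called (627 rose and 396 fell). DESeq2 called 4029 genes, of which 2272 fell. Within fixed-length libraries Slc32a1 (2.78) and Sp8 (1.54) missed the threshold, and within estimated-length libraries Slc32a1 (3.19), Dlx5 (1.70) and Sp8 (1.37) did. With 1 library left out in turn, log2 fold changes ranged from 2.66 to 3.31 for Slc32a1, from 1.74 to 3.93 for Dlx5 and from 1.30 to 1.55 for Sp8, and 0 to 3 members were called. Calls over all genes then ranged from 1294 (without control 1) to 3034 (without mutant 2), from 785 to 1589 that rose and from 509 to 1445 that fell. Of the 6 other GABAergic lists, 27 genes were called (22 rose and 5 fell), against 13 (13 rose and 0 fell) without the type term. Their number that fell was 1 by limma and 2 to 6 with a library left out. Members that were not called changed sign: Gad2 to -0.057, Dlx1 to -0.36 and Sp9 to -0.37 without the type term, Dlx1 to -0.42 within estimated-length libraries, and Lhx6 to 0.13 and Sp9 to -0.32 within fixed-length libraries. With a library left out, Dlx1 ranged from -0.41 to 0.97 (-0.00059 without mutant 2), Lhx6 from -0.52 to 0.13 and Sp9 from -0.32 to 0.29 (-0.04 without control 3). The causes of these changes were not tested, except that without control 1 or without mutant 3 the genotype effect comes from 1 library type alone. No paired analysis was possible because the labels give the genotypes no shared replicate numbers. Depth limits the members: 3 reads were worth 0.0447 to 0.0954 CPM, and several members had fewer in a library.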
